A study of Mus musculus with 6 samples.

Results

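The respiratory chain and the ATP synthase of the inner mitochondrial membrane are built mostly from proteins encoded in the nucleus. The genes described here were those among the deposited counts whose GENCODE M21 protein-coding symbol began with Nduf, Uqcr, Cox4, Cox5, Cox6, Cox7, Cox8 or Atp5, together with Sdha, Sdhb, Sdhc, Sdhd, Cyc1 and Cycs. This rule, which used no measured value, found 96 of the 55487 gene identifiers, carrying 95 symbols because Atp5o has 2 identifiers. RNA was measured in whole ovaries of 3 GalTKO and 3 wildtype mouse samples at postnatal day 49, all of strain cbl/6-ola/129 and all given 2.5% galactose for 4 weeks, so the wildtype ovaries also came from galactose-fed animals. GalTKO mice lack Galt, the uridylyltransferase of galactose breakdown whose loss in people causes classic galactosemia. The labels describe neither the knockout allele nor litter, cycle stage or the number of animals behind each sample. The spread that p-values are based on is therefore that among these samples and may be technical.

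Complex I takes electrons from NADH and complex II takes them from succinate; both pass them to ubiquinone. Complex III hands them through cytochrome c to complex IV, which reduces oxygen. Complexes I, III and IV pump protons, and the ATP synthase uses the proton gradient to turn its c ring and central stalk and make ATP. In the ovary, oocytes depend on mitochondrial ATP, and steroidogenic cells use mitochondria for the first step of steroid synthesis.

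No gene of the 91 that could be tested passed the threshold, an adjusted p under 0.05 in edgeR's quasi-likelihood test with Benjamini-Hochberg adjustment over all tested genes. Of all 16957 genes tested, 2.55% passed. The fitted log2 fold changes of GalTKO over wildtype were spread on both sides of 0, 45 positive and 46 negative, and 84 of 91 were smaller than 1.25-fold either way. The widest departure belonged to Ndufs5, and it was accompanied by a departure of opposite sign in counts assigned to a near-identical processed copy of Ndufs5 elsewhere in the genome.

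Ndufs5 encodes a small accessory subunit of the membrane arm of complex I, on the side that faces the intermembrane space. The gene ENSMUSG00000028648 lies on the minus strand of chromosome 4 from 123712710 to 123718202 (GRCm38). Its copy BC002163, ENSMUSG00000081824, is annotated as a processed pseudogene on chromosome 16 from 42955631 to 42955949, and was singled out after its values were seen. The copy aligned without gaps over 319 bases to the transcript of Ndufs5, covering all 318 coding bases, which lie in 2 of the 3 exons. Only 2 bases differed, T81C and A105G, where the Ndufs5 base comes first and positions are counted from 1 at the first base of the Ndufs5 start codon. The coding stretch from position 51 to 135 that holds both differences is printed 5′ to 3′ as the only part of the alignment in which a sequence can tell the locus of origin, with the differing bases in capitals.
Ndufs5: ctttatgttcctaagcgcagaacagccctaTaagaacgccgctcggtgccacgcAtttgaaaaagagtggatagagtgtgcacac
BC002163: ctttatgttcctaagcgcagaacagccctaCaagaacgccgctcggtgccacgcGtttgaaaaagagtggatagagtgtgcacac
Outside these positions the longest stretches without a difference ran for 214 and 80 bases.

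The level of Ndufs5 was 7.28, 22.1 and 12.9 CPM (counts scaled to library size, itself scaled by TMM, edgeR's trimmed-mean method) in GalTKO ovaries, against 37.0, 40.3 and 39.2 CPM in wildtype ovaries. Every GalTKO library lay below every wildtype library, and the GalTKO libraries differed widely among themselves while the wildtype libraries lay close together. The fitted log2 fold change was -1.46 ± 0.36 (SE, n = 3 each), with a 95% interval from -2.34 to -0.59 and an edgeR adjusted p of 0.113. BC002163 had 23.0, 14.97 and 32.4 CPM in GalTKO ovaries, against 0.320, 0.465 and 0.347 CPM in wildtype ovaries. These are 594, 347 and 623 counts in GalTKO libraries and 8, 11 and 8 counts in wildtype libraries. The copy was higher in GalTKO by 5.94 ± 0.37 on the log2 scale, with an edgeR adjusted p of 0.00022. The GalTKO library with the most Ndufs5 counts had the fewest counts on the copy.

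The copy held 76.0% of the counts of the pair in GalTKO replicate 1 (exact binomial 95% interval 72.8 to 78.9), 40.4% in replicate 2 (37.1 to 43.8) and 71.5% in replicate 3 (68.4 to 74.5). In wildtype replicates 1 to 3 it held 0.857% (0.371 to 1.68), 1.14% (0.572 to 2.04) and 0.875% (0.379 to 1.72). These intervals cover counting error only. Summed over both loci, the pair had 30.3, 37.1 and 45.3 CPM in GalTKO ovaries, against 37.3, 40.7 and 39.6 CPM in wildtype ovaries. The ranges overlapped, and the sum gave a log2 fold change of -0.06 ± 0.14 with a 95% interval from -0.39 to 0.26 and an edgeR adjusted p of 0.865. The counting rule for reads that match both loci is not stated in the sources at hand, and what divides the pair differently in the genotypes was not tested. Ndufs5 lies 82.0 Mb from Galt on the same chromosome.

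**Figure D1:**
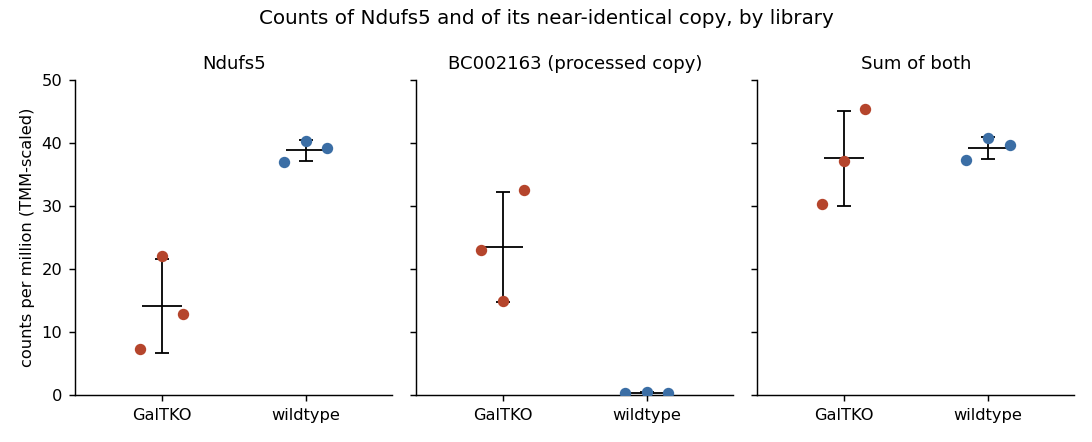
Level of Ndufs5, of its processed copy BC002163 and of their sum in CPM, with 1 point per library and the mean and SD of 3 libraries as bars. Ndufs5 is lower and the copy higher in all 3 GalTKO libraries, and the sums of the genotypes overlap.

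Other members had such copies too, but few counts were assigned to those copies. A copy of at least 90% identity over at least 200 bases was found elsewhere in the genome for 33 members, as 82 pairs of member and copy. Apart from Ndufs5, copies held at most 3.24% of a member's pooled counts, with a median of 0.334%. Adding the copies' counts to the members moved no other log2 fold change by more than 0.0057. Reads matching several loci that were dropped or assigned to a different gene cannot be seen in this way. In that fit, chosen after seeing the data, 0 of 91 members passed, the fold changes ran from -0.30 to 0.78 on the log2 scale, and the smallest edgeR adjusted p was 0.119, while 2.55% of all 16944 tested genes passed.

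Targeting of Galt, on chromosome 4 from 41755228 to 41758695, was visible in every library, with 4, 6 and 0 counts in GalTKO ovaries against 445, 380 and 402 counts in wildtype ovaries. Its log2 fold change was -6.82 ± 0.41 and its edgeR adjusted p 0.000153. Libraries held 19232486 to 25729564 counts. Granulosa, luteal, theca and oocyte markers were expressed, as whole ovary requires, except Hsd17b3 of the theca list, which was too low to test. It had 0.387, 0.216 and 0 CPM in GalTKO ovaries and 0.560, 0.338 and 0.303 CPM in wildtype ovaries. Cyp17a1 of the theca list had 400, 7.29 and 296 CPM in GalTKO ovaries and 120, 132 and 119 CPM in wildtype ovaries. GalTKO replicate 2 thus lay far below every other library for Cyp17a1. Aldh1a1 of the same list was not low there, with 1356, 2028 and 1115 CPM in GalTKO ovaries. Summed corpus luteum markers ran from 9427 to 15031 CPM in GalTKO ovaries and from 15777 to 22112 CPM in wildtype ovaries, with 1 of 9 markers passing as lower. Summed macrophage markers ran from 311 to 345 CPM in GalTKO ovaries and from 483 to 583 CPM in wildtype ovaries, with 5 of 10 passing as lower. Summed endothelial markers ran from 429 to 479 CPM in GalTKO ovaries and from 536 to 672 CPM in wildtype ovaries, with 2 of 8 passing as lower. Of 10 granulosa markers, Amh passed as higher at an edgeR adjusted p of 0.0214 and Nr5a2 as lower at 0.0425. Of 7 surface epithelium markers, Krt8 passed as higher at an edgeR adjusted p of 0.0440. Of 12 smooth muscle and pericyte markers, Rgs5 passed as lower at an edgeR adjusted p of 0.0098. No theca, oocyte or stroma marker passed. Markers of skeletal and heart muscle summed to 5.26 to 7.03 CPM in GalTKO ovaries and to 2.83 to 4.16 CPM in wildtype ovaries, with no marker passing. Among 5 oviduct markers only Ovgp1 was high enough to test, and it did not pass. Ovgp1 had 0.155, 0.043 and 0.573 CPM in GalTKO ovaries and 0.800, 20.3 and 0.173 CPM in wildtype ovaries, so it stood out in wildtype replicate 2 alone. Of 7 adipocyte markers Lep and Ucp1 were at 0 and only Plin1, a lipid droplet protein, was abundant, with 53.1, 41.6 and 38.9 CPM in GalTKO ovaries against 21.99, 22.5 and 19.8 CPM in wildtype ovaries, higher at an edgeR adjusted p of 0.00617. The part of these cell types in the values that follow was not tested, and in whole tissue fewer cells of a type and less RNA per cell cannot be told apart.

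Taken as a set, the 96 genes received 0.768%, 0.762% and 0.821% of all counts in GalTKO replicates 1 to 3, and 0.765%, 0.790% and 0.836% in wildtype replicates 1 to 3. Their summed level averaged 7798 ± 369 CPM in GalTKO ovaries and 8035 ± 499 CPM in wildtype ovaries (SD, n = 3 each), a ratio of 0.970. GalTKO replicate 3 was the highest library for 40 of the 91 tested members and wildtype replicate 3 for 36, whereas wildtype replicate 1 was the lowest for 35. The highest values thus gathered in 1 library of each genotype. The median member log2 fold change was -0.0047, beside 0.020 over all tested genes, and its quartiles were -0.11 and 0.16, beside -0.14 and 0.20 over all tested genes.

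At an unadjusted p under 0.05, 13 of 91 members (14.3%) would be listed, 7 higher and 6 lower, beside 17.1% of all tested genes, of which 8.19% were higher and 8.9% lower. The GalTKO and wildtype values did not overlap in 24 members (26.4%), 11 higher and 13 lower, beside 23.7% of all tested genes. Both shares were near those over all genes. The precision was enough to bound most members: the median SE was 0.107, and the 95% interval lay within 0.5 on the log2 scale either way for 67 of 91 and within 1 for 88, the exceptions to the wider bound being Ndufaf2, Ndufaf6 and Ndufs5. The 5 untested identifiers were Cox6a2, Cox7b2, Cox8b, Cox8c and the second Atp5o identifier, which overlaps the first, and 2 of these had no count in any library.

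**Figure D2:**
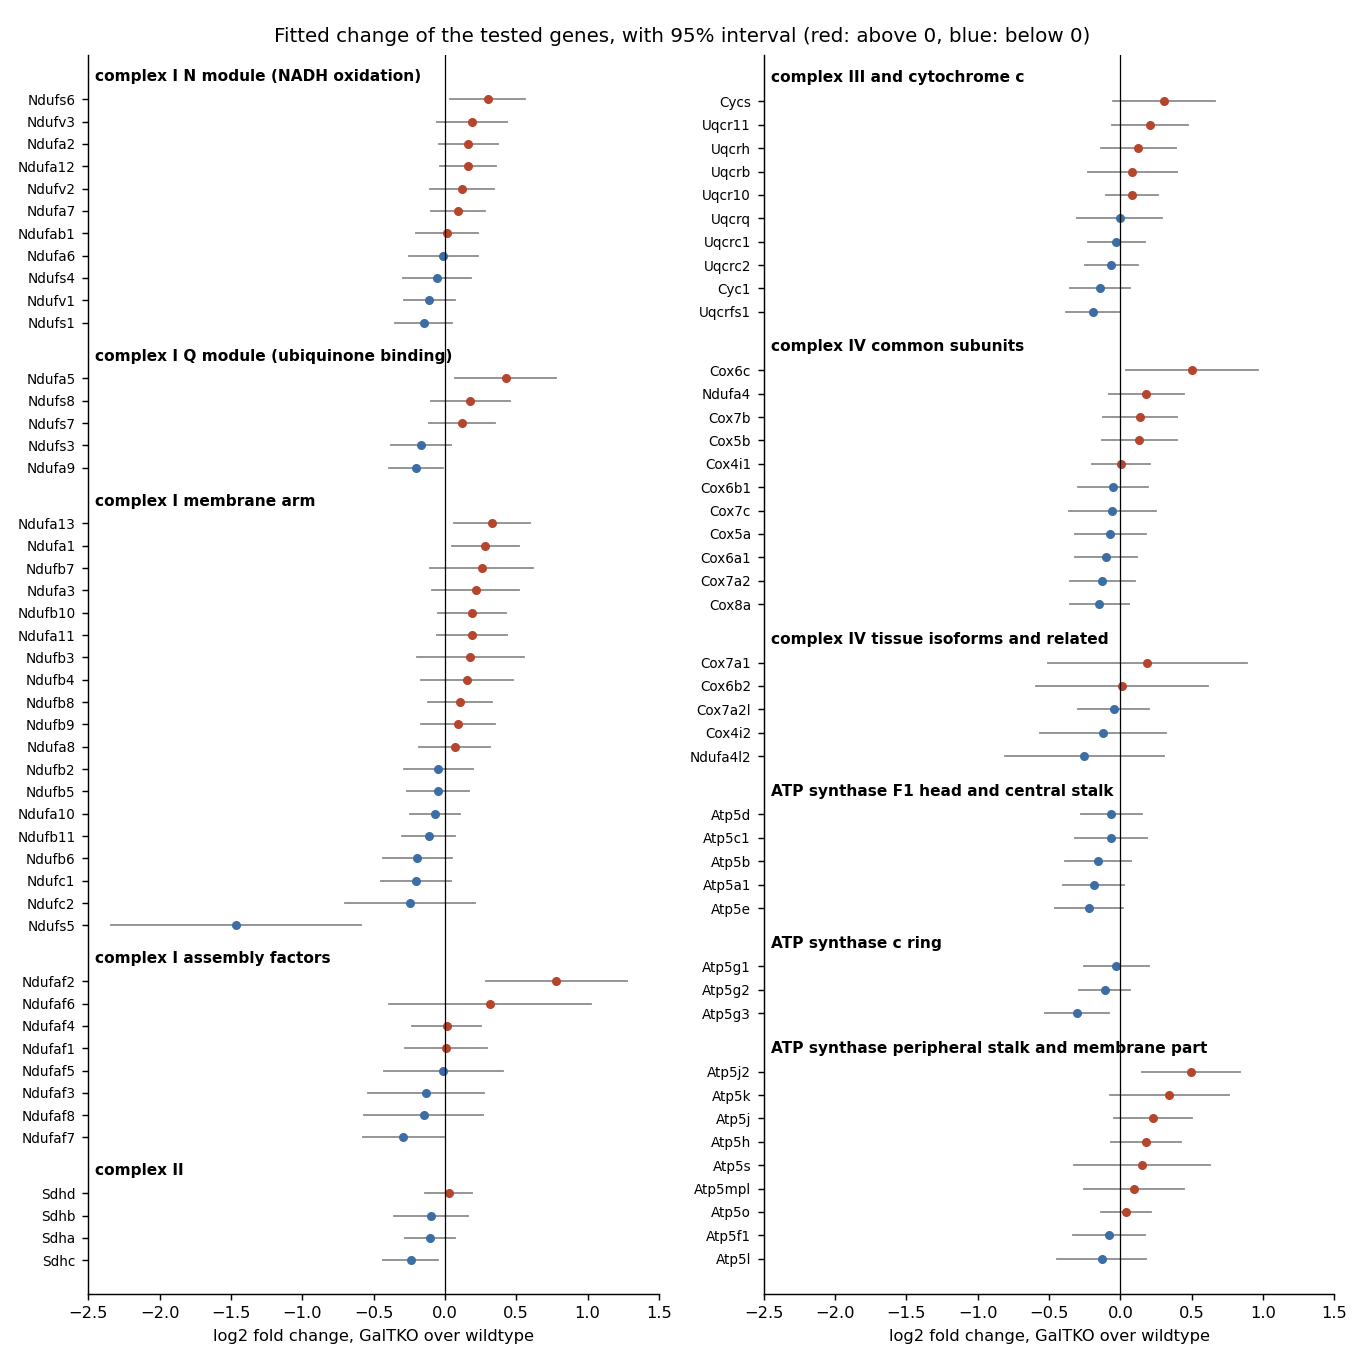
Log2 fold change of GalTKO over wildtype for 90 of the 91 tested genes, grouped by role, with 95% intervals as lines. Most intervals cross 0; Ndufs5 stands apart on the left at -1.46.

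Per length of transcript, the level of tested members averaged over all 6 libraries ran from 3.51 CPM per kb for the assembly factor Ndufaf6 to 526 for Atp5b, with a median of 57.0. Atp5b, the catalytic beta subunit of the ATP synthase, had 498 ± 22 CPM per kb in GalTKO ovaries and 554 ± 41 in wildtype ovaries (SD, n = 3 each). The complex IV subunits Cox6a1 and Cox7c followed. Cox6a1 had 335 ± 21 CPM per kb in GalTKO ovaries and 359 ± 33 in wildtype ovaries, and Cox7c had 307 ± 53 in GalTKO ovaries and 319 ± 33 in wildtype ovaries. Atp5b lay above both in either genotype.

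In complex I, the 36 subunit genes summed to 1986 ± 122 CPM in GalTKO ovaries and 1972 ± 119 CPM in wildtype ovaries. The N module, which oxidises NADH, had 7 of 11 members with a positive and 4 with a negative fold change and a median of 0.09 on the log2 scale, or 0.04 without GalTKO replicate 3. Ndufs6, a zinc-binding subunit of this module, had 33.2, 33.3 and 40.7 CPM in GalTKO ovaries, against 27.3, 28.4 and 31.3 CPM in wildtype ovaries. The groups did not overlap, but its log2 fold change of 0.30 ± 0.11 had an edgeR adjusted p of 0.237. Ndufa12, a further accessory subunit of the N module, had a log2 fold change of 0.16 ± 0.09 and an edgeR adjusted p of 0.397.

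The Q module, where ubiquinone is reduced, was split 3 and 3. Ndufa5 had 17.9, 20.9 and 25.97 CPM in GalTKO ovaries, against 14.5, 17.4 and 16.3 CPM in wildtype ovaries, with a log2 fold change of 0.42 ± 0.15 and an edgeR adjusted p of 0.215. Ndufa9 lay the other way, with 49.5, 52.5 and 55.9 CPM in GalTKO ovaries, against 59.7, 59.2 and 62.8 CPM in wildtype ovaries, and its log2 fold change of -0.20 ± 0.08 had an edgeR adjusted p of 0.268. Neither gene's groups overlapped and neither passed the test. Their 95% intervals ran from 0.07 to 0.78 and from -0.39 to -0.01. These intervals are not adjusted for the choice of the 2 genes with the smallest p in the module.

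In the membrane arm, 11 of 19 members were positive and 8 negative, with a median of 0.09 on the log2 scale. This direction rested on single libraries: without GalTKO replicate 3, 9 were positive and 10 negative with a median of -0.0066, and without wildtype replicate 1 the median was 0.04. After Ndufs5 the smallest p belonged to Ndufa13, also known as GRIM-19, which is needed to assemble the complex. It had 31.8, 33.6 and 38.7 CPM in GalTKO ovaries, against 24.5, 29.8 and 28.3 CPM in wildtype ovaries, with a log2 fold change of 0.33 ± 0.12 and an edgeR adjusted p of 0.202. Ndufa13 shares 375 exonic bases with Tssk6 on the other strand, and no source at hand states whether counting used the strand. In all, 29 members overlap exons of a gene on the opposite strand and 6 overlap one on their own, so their counts are uncertain to that extent.

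Of the 8 assembly factors that the symbol rule includes, which help build complex I without remaining in it, 4 were positive and 4 negative. The split was 2 and 6 without wildtype replicate 1, and 5 and 3 without GalTKO replicate 2. Ndufaf2, a paralogue of Ndufa12 that holds its place during assembly, had 7.59, 7.89 and 9.42 CPM in GalTKO ovaries, against 3.68, 6.13 and 4.68 CPM in wildtype ovaries. All GalTKO values were above all wildtype values, and the log2 fold change was 0.78 ± 0.22, with a 95% interval from 0.28 to 1.27 and an edgeR adjusted p of 0.119. The antisense gene B230220B15Rik, which overlaps 1955 of its exonic bases, had 1 count in GalTKO replicate 1 and 0 in the other libraries. Ndufaf7, a methyltransferase that acts early in the assembly of the complex, had a log2 fold change of -0.29 ± 0.12 and an edgeR adjusted p of 0.281. DESeq2 called both Ndufaf2, with an adjusted p of 0.0311, and Ndufs5, with an adjusted p of 9.64e-05, where 5.44% of 18860 genes with an adjusted p passed. Limma voom with quality weights called Ndufs5 alone among the members, at an adjusted p of 0.0101, where 3.12% of all genes passed. Without a filter on low counts edgeR called Ndufaf2, with an adjusted p of 0.0398, and Atp5j2, with 0.0299, where 2.83% of 30937 genes passed. Leaving out GalTKO replicate 2, the library with the most Ndufs5, edgeR called Ndufs5 with a log2 fold change of -1.96 and an adjusted p of 0.00618, where 4.26% of all genes passed.

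Complex II, which is also the succinate dehydrogenase of the citric acid cycle, is made of 4 nuclear-encoded subunits. They summed to 462, 460 and 468 CPM in GalTKO ovaries, against 489, 490 and 518 CPM in wildtype ovaries, a ratio of 0.929 with groups that did not overlap. By gene, 1 was positive and 3 negative, with a median of -0.10 on the log2 scale. Without wildtype replicate 3 the split was 2 and 2, with a median of -0.04. Sdhc, a membrane anchor that helps bind haem, had 72.1, 64.3 and 74.6 CPM in GalTKO ovaries, against 85.0, 80.7 and 83.5 CPM in wildtype ovaries. Its log2 fold change was -0.24 ± 0.08, and the edgeR adjusted p was 0.203. Sdha, the flavoprotein that oxidises succinate, had a log2 fold change of -0.11 ± 0.08 and an edgeR adjusted p of 0.546.

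Complex III and cytochrome c summed to 826 ± 46 CPM in GalTKO ovaries and 824 ± 51 CPM in wildtype ovaries, with 5 members positive and 5 negative. The split was 7 and 3 without wildtype replicate 3, and 4 and 6 without wildtype replicate 1. Uqcrfs1, the Rieske iron-sulphur protein, had 69.7, 70.9 and 72.4 CPM in GalTKO ovaries, against 79.4, 76.2 and 87.6 CPM in wildtype ovaries. The groups did not overlap, and its log2 fold change of -0.19 ± 0.08 had an edgeR adjusted p of 0.284. Cycs, the cytochrome c of somatic cells, had 46.3, 33.6 and 48.0 CPM in GalTKO ovaries, against 29.6, 37.4 and 36.4 CPM in wildtype ovaries. Its groups overlapped, and its log2 fold change was 0.31 ± 0.16 with an edgeR adjusted p of 0.368.

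Among the 11 subunits of complex IV found in most tissues, 5 were positive and 6 negative. The split was 7 and 4 without GalTKO replicate 2 or without wildtype replicate 3. It was 4 and 7 without GalTKO replicate 3 or without wildtype replicate 1. Cox6c, a small membrane subunit, had 117, 116 and 174 CPM in GalTKO ovaries, against 77.8, 113 and 96.6 CPM in wildtype ovaries. GalTKO replicate 3 stood well above the other 2 knockout libraries, and the fitted log2 fold change came to 0.50 ± 0.20 with an edgeR adjusted p of 0.256. Without GalTKO replicate 3 the log2 fold change was 0.28. Cox8a had a log2 fold change of -0.15 ± 0.09 and an edgeR adjusted p of 0.457.

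Several complex IV subunits have a second form that takes the place of the common one in certain tissues, and the share of each pair, in counts per base of transcript, does not depend on library scaling. Cox4i2, the form known from lung and from low oxygen, made up 2.55% ± 0.24 of its pair with Cox4i1 in GalTKO ovaries and 2.75% ± 0.41 in wildtype ovaries (SD, n = 3 each). Cox7a1, a heart and muscle form, made up 7.26% ± 1.93 of its pair with Cox7a2 in GalTKO ovaries and 6.00% ± 0.59 in wildtype ovaries. Cox6b2, the testis form, made up 3.29% ± 1.155 of its pair in GalTKO ovaries and 3.16% ± 0.59 in wildtype ovaries. These shares depend on the length chosen per gene: with all annotated exons merged, the Cox4i2 share was 4.70% in GalTKO ovaries and 5.07% in wildtype ovaries, and the Cox6b2 share 2.02% in GalTKO ovaries and 1.94% in wildtype ovaries. The muscle forms Cox6a2 and Cox8b were near the limit of detection, with 2, 2 and 5 counts of Cox6a2 in GalTKO libraries against 7, 3 and 6 in wildtype libraries, and 3, 1 and 3 counts of Cox8b in GalTKO libraries against 3, 6 and 10 in wildtype libraries. Cox8c, a testis form, had 1 count, in GalTKO replicate 2, and Cox7b2 none, while male germ cell markers summed to at most 0.155 CPM in GalTKO ovaries and 0.520 CPM in wildtype ovaries, with Pgk2, Prm1, Tnp1 and Odf1 at 0. In 6 exact two-sided permutation tests the p-values ran from 0.3 to 1, adjusted to 0.75 to 1 over the 6 pairs, and 3 libraries against 3 cannot go below 0.1. The common form was thus the main one of every pair in both genotypes.

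Of the related genes, Ndufa4l2, a relative of the complex IV subunit Ndufa4 that low oxygen induces in other tissues, had a log2 fold change of -0.25 ± 0.24 and an edgeR adjusted p of 0.657. Cox7a2l, which links complexes III and IV into supercomplexes, had a log2 fold change of -0.05 ± 0.11 and an edgeR adjusted p of 0.868.

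**Figure D3:**
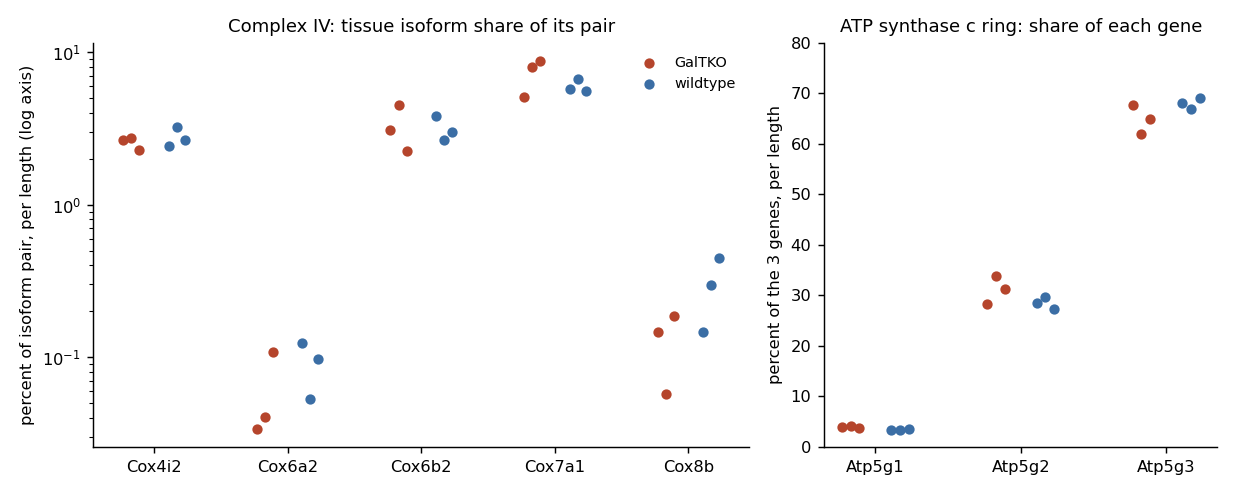
Left, share of the tissue form of 5 complex IV subunits in its pair with the common form, on a log axis; right, share of each of the 3 c-ring genes, both per length and with 1 point per library. In each of the 5 pairs the GalTKO and wildtype points overlap. Among the c-ring genes only Atp5g1 has separate groups, between 3.36% and 4.18%. The c-ring shares depend on the lengths used, 4715 bases for Atp5g1 against 731 for Atp5g2 and 723 for Atp5g3.

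The ATP synthase genes summed to 2966, 2897 and 3000 CPM in GalTKO ovaries, against 3051, 3068 and 3426 CPM in wildtype ovaries, a ratio of 0.928. The groups did not overlap, and wildtype replicate 3 lay well above the rest. Its parts differed in sign. All 5 genes of the F1 head and central stalk were negative, with a median of -0.16 on the log2 scale, and all 3 c-ring genes were negative, with a median of -0.11. Of these 3, 1 was positive in limma voom and on omission of wildtype replicate 3 or of GalTKO replicate 3, and the median was -0.07 without GalTKO replicate 1. Of 9 tested genes of the peripheral stalk and membrane part 7 were positive, with a median of 0.15, which was 0.04 without wildtype replicate 1 and 0.09, with 6 positive, without GalTKO replicate 3. No gene of any of these groups passed the test, and the difference between the groups was not tested.

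The F1 head summed to 1949, 1911 and 1888 CPM in GalTKO ovaries, against 2061, 2032 and 2293 CPM in wildtype ovaries. Without wildtype replicate 3 the 5 genes were no longer all negative: 1 was positive and the median was -0.09. Atp5a1, the alpha subunit, had 612, 637 and 585 CPM in GalTKO ovaries, against 688, 662 and 740 CPM in wildtype ovaries, with a log2 fold change of -0.19 ± 0.09 and an edgeR adjusted p of 0.353. Atp5b had 1002, 927 and 932 CPM in GalTKO ovaries, against 1022, 1011 and 1153 CPM in wildtype ovaries, with a log2 fold change of -0.16 ± 0.10 and an edgeR adjusted p of 0.488. Atp5e, the epsilon subunit of the central stalk, had a log2 fold change of -0.22 ± 0.10 and an edgeR adjusted p of 0.335. Groups of Atp5a1 and of Atp5b did not overlap, by margins smaller than the spread of the wildtype libraries.

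The c ring is encoded by 3 genes that differ in their import sequences and give the same mature protein. Atp5g3 had 200.5, 170 and 184 CPM in GalTKO ovaries, against 225, 211 and 248.6 CPM in wildtype ovaries, with a log2 fold change of -0.30 ± 0.10 and an edgeR adjusted p of 0.167. It was the main source of c-ring transcript, with 67.7%, 62.0% and 64.9% of the 3 genes per length in GalTKO libraries and 68.0%, 66.9% and 69.1% in wildtype libraries. Atp5g2 supplied 28.3%, 33.9% and 31.3% in GalTKO libraries and 28.6%, 29.7% and 27.3% in wildtype libraries, and its log2 fold change was -0.11 ± 0.08 with an edgeR adjusted p of 0.525. Atp5g1 supplied 4.04%, 4.18% and 3.82% in GalTKO libraries and 3.41%, 3.36% and 3.63% in wildtype libraries. All 3 shares depend on the transcript lengths used, 4715 bases for Atp5g1 against 731 for Atp5g2 and 723 for Atp5g3. Before division by length Atp5g1 had 77.9, 74.8 and 70.5 CPM in GalTKO ovaries and 73.5, 68.9 and 85.2 CPM in wildtype ovaries. Atp5g2 had 84.6, 93.8 and 89.7 CPM in GalTKO ovaries and 95.5, 94.5 and 99.4 CPM in wildtype ovaries. The c-ring shares were described without a test.

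In the membrane part, Atp5j2, which encodes subunit f, had 39.9, 40.9 and 51.6 CPM in GalTKO ovaries, against 27.1, 37.3 and 29.7 CPM in wildtype ovaries. All GalTKO values were above all wildtype values, and the log2 fold change was 0.49 ± 0.15 with a 95% interval from 0.15 to 0.83 and an edgeR adjusted p of 0.145. Atp5j, coupling factor F6 of the peripheral stalk, had a log2 fold change of 0.23 ± 0.12 and an edgeR adjusted p of 0.382. Atp5j shares 397 exonic bases with Gabpa on the other strand.

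**Figure D4:**
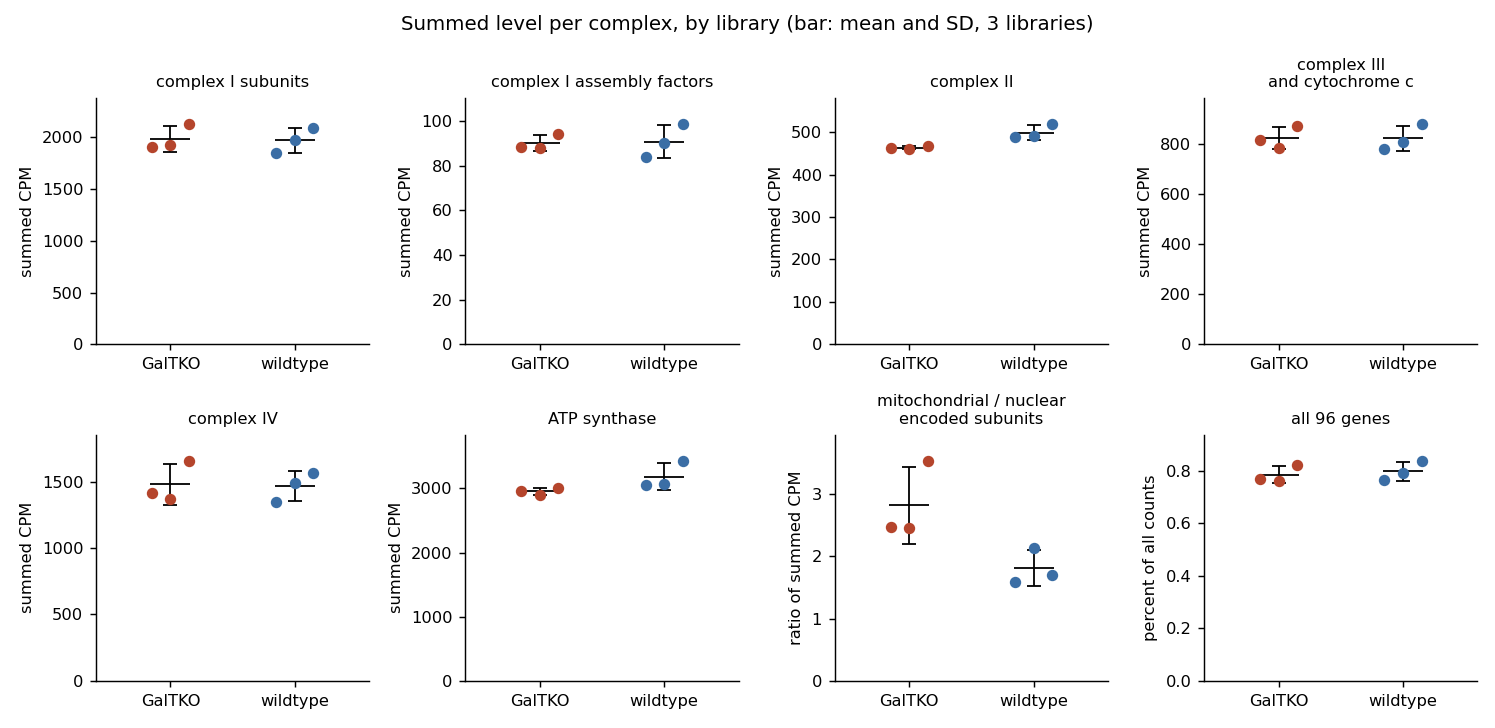
Summed CPM of the genes of each complex, the ratio of mitochondrially to nuclear-encoded subunits and the percent of counts taken by all 96 genes, with 1 point per library and the mean and SD of 3 libraries. GalTKO and wildtype libraries overlap for complexes I, III and IV, and lie apart for complex II, the ATP synthase and the ratio.

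Members with short transcripts tended to lie above 0 and those with long ones below it. Of 31 members whose principal transcript has at most 683 bases, 19 were positive, with a median log2 fold change of 0.09. Of 30 from 684 to 1231 bases 18 were positive, with a median of 0.05, and of 30 with 1232 bases or more 8 were positive, with a median of -0.07. Other protein-coding genes of the same lengths showed 65.6%, 63.5% and 49.9% positive, with medians of 0.16, 0.10 and -0.0002. Spearman's rho between log2 fold change and length was -0.274 over the 91 members and -0.113 over 14260 other coding genes, all measured in the same 6 libraries and not independent of each other. Members of 683 bases or fewer deviated from their 6-library mean by -0.06, -0.04 and 0.20 (median log2) in GalTKO replicates 1 to 3 and by -0.15, 0.01 and 0.02 in wildtype replicates 1 to 3, so GalTKO replicate 3 and wildtype replicate 1 lay farthest apart. The classes were drawn after the data were seen.

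**Figure D5:**
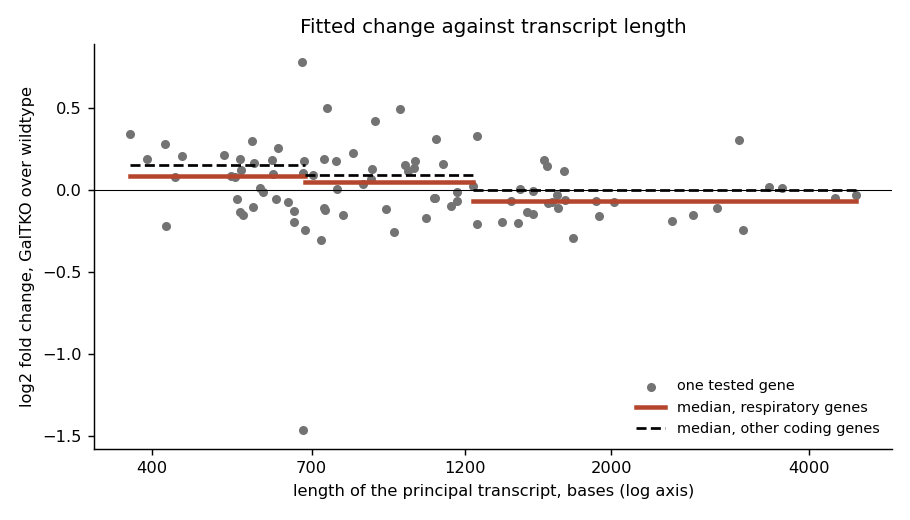
Log2 fold change of GalTKO over wildtype against transcript length on a log axis, with 1 grey point per tested gene, red lines for the median of these genes in each length class and dashed lines for other protein-coding genes of that class. The red line steps down from 0.09 to 0.05 and -0.07, below the dashed line in each class.

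The 13 subunits encoded in mitochondrial DNA, which are assembled with the nuclear ones in complexes I, III, IV and the ATP synthase, were all positive, with a median log2 fold change of 0.77. They summed to 18907, 18499 and 29032 CPM in GalTKO ovaries, against 12111, 16952 and 14575 CPM in wildtype ovaries, so that all GalTKO libraries were above all wildtype libraries and GalTKO replicate 3 was far above the other two. Only mt-Atp6, a proton channel subunit, passed the test, with 36.2, 41.0 and 33.6 CPM in GalTKO ovaries against 13.9, 22.03 and 19.3 CPM in wildtype ovaries, a log2 fold change of 1.01 ± 0.17 and an edgeR adjusted p of 0.0233. The call was lost without GalTKO replicate 1, at an adjusted p of 0.0638, and without wildtype replicate 3, at 0.0906. DESeq2 called 8 of the 13, and edgeR without a filter on low counts called 4. The ratio of summed mitochondrial to nuclear-encoded subunits was 2.47, 2.46 and 3.53 in GalTKO ovaries, against 1.59, 2.14 and 1.70 in wildtype ovaries. Without GalTKO replicate 3 the median of the 13 was 0.48. These 13 counts differed widely in size, with mt-Co1 at 8189, 7675 and 11806 CPM in GalTKO ovaries against 5653, 7114 and 6019 CPM in wildtype ovaries, and how reads that match several places were counted is unknown for them too. The libraries held total RNA, and what the difference in mitochondrial transcripts rests on was not tested.

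Other genes of mitochondrial energy metabolism were read from lists drawn up with earlier results of these data known. Over all tested genes 17.1% had an unadjusted p under 0.05, 2.55% passed, and the median log2 fold change was 0.020. Of 37 tested assembly factors outside the symbol rule none passed edgeR's test and 3 had an unadjusted p under 0.05, with 18 positive and 19 negative. Foxred1, a complex I assembly factor, had a log2 fold change of -0.44 ± 0.11 and an edgeR adjusted p of 0.0884, and Cox15, which makes haem a for complex IV, had -0.45 ± 0.11 and an edgeR adjusted p of 0.0905. Pet100 lay the other way, with a log2 fold change of 0.54 ± 0.22 and an edgeR adjusted p of 0.272. Of 13 genes of coenzyme Q synthesis none passed and none had an unadjusted p under 0.05. Of 16 genes of pyruvate dehydrogenase and the citric acid cycle 14 were negative, none passed and 1 had an unadjusted p under 0.05, Ogdh, a subunit of the oxoglutarate dehydrogenase, with a log2 fold change of -0.26 ± 0.09 and an edgeR adjusted p of 0.183.

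Of 8 tested carriers and channels of the mitochondrial membranes, Ucp2, a carrier of the uncoupling protein family, passed as higher. It had 460, 522 and 523 CPM in GalTKO ovaries, against 363, 353 and 325.5 CPM in wildtype ovaries, with no overlap, a log2 fold change of 0.53 ± 0.09 and an edgeR adjusted p of 0.0282. The call was lost without GalTKO replicate 3, at an adjusted p of 0.0659, and without wildtype replicate 1, 2 or 3, at 0.105, 0.127 and 0.113. Of 20 regulators of mitochondrial biogenesis and mitochondrial DNA none passed and 2 had an unadjusted p under 0.05, with 15 positive. Esrrg, an orphan nuclear receptor that drives oxidative genes in muscle and heart, had 6.97, 3.24 and 5.47 CPM in GalTKO ovaries, against 2.80, 2.71 and 2.21 CPM in wildtype ovaries, a log2 fold change of 1.02 ± 0.30 and an edgeR adjusted p of 0.13. Of 77 mitochondrial ribosomal protein genes, 62 were positive with a median of 0.12 and none passed. An unadjusted p under 0.05 was found for 8 of them, a smaller share than the 17.1% of all tested genes. The 78 such genes among the counts summed to 2347, 2272 and 2474 CPM in GalTKO ovaries, against 2148, 2236 and 2343 CPM in wildtype ovaries. These sums overlapped. Of 80 cytosolic ribosomal protein genes, which like many members are short, 71 were positive with a median of 0.18 and 28 had an unadjusted p under 0.05, beside the 17.1% of all genes given above, while 2 passed, Rpl26 and Rps15a, both higher.

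The symbol rule used no sequence, so promoter letters could be counted apart from it. Of the 96 identifiers, 76 matched RefSeq promoter windows of GRCm38.p6, 250 bases before to 50 after each start, covering 75 genes. On either strand, TGCGCANGC, a core of the NRF1 site, occurred in 13 of 75 member genes (17.3%), beside 4.70% of 27025 genes. AAGATGGCG, a YY1 core, occurred in 8 (10.7%), beside 1.64%. TCAAGGTCA, bound by the estrogen-related receptors, occurred in 2 (2.67%), beside 0.466%, and CCGGAAGTG, an ETS core bound by GABPA, occurred in 2 (2.67%), beside 2.25%. The 27025 genes are all those with such a window, expressed in ovary or not, and were not matched to the members in base content. In all, 24 of the 75 carried at least 1 of the 4 motifs. These are textbook factors of respiratory genes, and a match of letters is a description, not a binding site. For the 3 members named above that carry a match in the 150 bases before the RefSeq start and little of their own annotated exons there (16, 23 and 0 bases in the order given), this stretch is shown 5′ to 3′ on the minus strand, where each gene lies, with the matched letters in capitals, for Ndufs5 (chr4:123718187-123718336, NRF1), Cox6a1 (chr5:115348959-115349108, NRF1) and Atp5g3 (chr2:73911327-73911476, estrogen-related receptor, in reverse complement).
Ndufs5: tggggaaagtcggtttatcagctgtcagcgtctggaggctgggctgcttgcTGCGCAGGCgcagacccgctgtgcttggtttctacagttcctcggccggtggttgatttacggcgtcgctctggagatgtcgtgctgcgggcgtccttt
Cox6a1: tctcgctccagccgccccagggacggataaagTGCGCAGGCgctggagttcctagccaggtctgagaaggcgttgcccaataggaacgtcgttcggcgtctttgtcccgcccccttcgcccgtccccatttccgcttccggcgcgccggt
Atp5g3: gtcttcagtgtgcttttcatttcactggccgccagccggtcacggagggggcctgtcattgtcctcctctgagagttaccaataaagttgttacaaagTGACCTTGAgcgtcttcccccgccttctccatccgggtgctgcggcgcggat
The 3 genes so shown had log2 fold changes of -1.46, -0.10 and -0.30, and the log2 fold changes of carriers and non-carriers of a motif were not compared.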

How the data were processed

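Total RNA of 6 ovary samples was depleted of ribosomal RNA with Ribo-Zero Gold and made into stranded Illumina TruSeq libraries, per the labels' protocols. The authors deposited raw counts per Ensembl gene, whole numbers without normalization. STAR 2.7.6a, featureCounts 1.6.3, DESeq2 1.30.1 and cutadapt 1.16 are named for GRCm38, per the submitters' processing notes; no source at hand states their settings, strand and the treatment of multiply matching reads included, and such reads decide the counts of genes with near-identical copies. Of 55487 identifiers all but 260 matched GENCODE M21. Titles gave the groups. No 2 libraries agreed within sampling noise (chi-square per degree of freedom at least 12.0).

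Counts were tested in edgeR 4.0.16 (R 4.3.3): filterByExpr (minimum count 10, total 15), TMM, robust quasi-likelihood fit with genotype as the only term, two-sided, Benjamini-Hochberg over 16957 genes, threshold 0.05; the common biological coefficient of variation was 17.4%. CPM use TMM-scaled sizes. Intervals of fold changes are at 95% from the fit's t distribution. Copies were found with BLAST 2.17.0 among GENCODE transcripts (at least 90% identity over 200 bases). Levels per length use the longest principal transcript. Alternatives used DESeq2 1.42.0 and limma 3.58.1; isoform shares were tested in scipy 1.17.1. The members, lists and tests were chosen with earlier results of these data known. Members were named by rule: in each role the 2 with the smallest p, the 3 of highest level per length and the complex IV tissue forms; of each other list up to 3 of smallest p. The values of 1 member are not reported here, though counts and sums over members include it.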

Additional observations from a re-analysis of the deposited data

How the results depend on the processing

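The count of respiratory chain and ATP synthase genes past the threshold was 0 with median-of-ratios scaling, with TMM without mitochondrially encoded genes, with a filter of 1 CPM in 3 libraries, among protein-coding genes only, at an adjusted p under 0.1 and with copies added. It was 2 in DESeq2 (Ndufs5 and Ndufaf2), 1 in limma voom (Ndufs5), 2 with no filter (Ndufaf2 and Atp5j2), and 0 to 1 with a library left out. Over all genes, 433 passed; the count was 1026 in DESeq2, 877 with no filter, 260 among protein-coding genes only, 761 at an adjusted p under 0.1, and 165 to 742 with a library left out. The labels do not say that the replicate numbers pair the samples. Same-numbered libraries deviated together with correlations of 0.093, -0.040 and 0.078, which with 3 libraries per genotype cannot settle the point. With a replicate block 321 genes and 0 members passed, at a smallest member edgeR adjusted p of 0.0749 (Ndufs5). The member median log2 fold change ran from -0.048 to 0.032 with a library left out, and the ratio of summed CPM from 0.944 to 1.005.

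Of 808 refitted values of named genes, 767 kept direction and side of the threshold, 10 lost a call, 20 gained one and 11 changed sign, all among 6 genes of complex IV or related to it. With a library left out, Ndufa4l2 ran from -0.42 to 0.0018, Cox4i2 from -0.25 to 0.033, Cox7c from -0.21 to 0.026, Cox6b2 from -0.29 to 0.18, Cox7a1 from -0.066 to 0.44 and Cox7a2l from -0.18 to 0.025, and Cox6b2 was -0.095 in voom and -0.027 with the replicate block. Under the same omissions, isoform share differences, GalTKO minus wildtype in percentage points, ran from -0.38 to 0.023 for Cox4i2 and from -0.50 to 0.64 for Cox6b2, both crossing 0. The cause was not tested. Depth limits Cox6a2, Cox8b and Cox8c, whose counts were 10 or fewer in every library.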
